A study of Mus musculus with 6 samples.

Results

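The genes described here are 38 imprinted genes of the mouse, among them the cell cycle inhibitor gene Cdkn1c and the growth factor gene Igf2. They were listed by name as known imprinted genes, by a rule that uses no measured value but with earlier results of these data known, and are 38 of the 27179 genes in each of 2 comparison tables. They fall into 16 imprinted clusters, 8 of which are represented by 1 gene. The RNA came from C2C12, an immortalized mouse myoblast line, harvested 48 h after the change to differentiation medium. The 3 groups were cells stably carrying an shRNA against BAF250A, cells stably carrying an shRNA against BRD9, and cells stably carrying a scrambled shRNA that targets no gene, each with 2 libraries that the series calls biological duplicates. BAF250A (gene Arid1a) and BRD9 are subunits of different forms of the SWI/SNF chromatin remodelling complex, and every group was grown in the same horse serum and insulin medium. How many shRNAs or clones stand behind each line was not given in the sources used here, so a line's own history cannot be told apart from its knockdown. Libraries of cells with an shRNA against BAF180, which the treatment protocol names, were not analysed here.

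An imprinted gene is transcribed mainly from the copy inherited from the mother or mainly from the copy inherited from the father. The choice is set by DNA methylation of an imprinting control region, and many clusters pair genes for proteins with a long noncoding RNA that silences or competes with its neighbours on the same chromosome. In muscle cells Cdkn1c (the inhibitor p57) is known for holding differentiating myoblasts out of the cell cycle, Igf2 for driving differentiation as a secreted growth factor, and H19 as an abundant noncoding RNA. The reads were not assigned to parental copies, so every value below is the sum over both copies.

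The promoter windows of 5 genes that the results turn on are shown here, 3 of genes that were higher and 2 of genes that were lower in both knockdowns. Each runs from 250 bases before to 50 bases after an annotated start, 5′ to 3′ on the strand of the gene, from RefSeq on GRCm38.p6, and capitals mark CG, the dinucleotide that carries DNA methylation. Windows were matched by symbol for 30 of the 38 genes; Cdkn1c was not matched. Where a gene has several windows the one with the most CG is shown.
Igf2 (chr7:142658755-142659054, minus strand): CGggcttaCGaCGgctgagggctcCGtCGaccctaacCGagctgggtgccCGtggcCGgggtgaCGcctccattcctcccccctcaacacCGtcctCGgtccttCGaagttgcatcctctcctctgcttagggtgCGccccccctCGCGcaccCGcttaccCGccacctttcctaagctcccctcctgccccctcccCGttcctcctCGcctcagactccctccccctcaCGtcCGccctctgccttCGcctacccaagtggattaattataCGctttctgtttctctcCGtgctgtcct
Mest (chr6:30737800-30738099, plus strand): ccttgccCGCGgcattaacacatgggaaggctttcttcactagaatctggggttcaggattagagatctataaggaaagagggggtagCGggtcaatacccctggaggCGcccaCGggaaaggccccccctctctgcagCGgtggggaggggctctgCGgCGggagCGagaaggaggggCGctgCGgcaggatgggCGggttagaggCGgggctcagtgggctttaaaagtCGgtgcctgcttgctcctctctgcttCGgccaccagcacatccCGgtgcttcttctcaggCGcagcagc
Ndn (chr7:62348027-62348326, plus strand): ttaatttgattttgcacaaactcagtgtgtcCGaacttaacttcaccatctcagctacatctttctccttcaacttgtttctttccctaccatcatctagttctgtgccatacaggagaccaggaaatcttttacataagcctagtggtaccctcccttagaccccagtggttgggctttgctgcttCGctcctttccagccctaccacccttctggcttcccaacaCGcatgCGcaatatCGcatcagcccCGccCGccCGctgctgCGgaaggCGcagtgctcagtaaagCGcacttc
Kcnq1ot1 (chr7:143296498-143296797, minus strand): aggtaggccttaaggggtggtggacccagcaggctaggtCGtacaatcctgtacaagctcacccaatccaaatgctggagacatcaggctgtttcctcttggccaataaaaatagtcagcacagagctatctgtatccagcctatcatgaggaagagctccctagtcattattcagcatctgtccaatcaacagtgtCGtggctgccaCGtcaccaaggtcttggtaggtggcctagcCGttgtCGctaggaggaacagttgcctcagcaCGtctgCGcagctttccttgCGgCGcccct
Snrpn (chr7:60005150-60005449, minus strand): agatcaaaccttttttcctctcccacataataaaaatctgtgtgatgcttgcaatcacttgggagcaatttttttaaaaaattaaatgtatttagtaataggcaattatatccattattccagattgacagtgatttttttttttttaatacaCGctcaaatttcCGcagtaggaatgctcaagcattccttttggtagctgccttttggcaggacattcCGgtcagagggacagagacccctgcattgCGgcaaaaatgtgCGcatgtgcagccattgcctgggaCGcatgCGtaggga
The windows of Igf2, Mest, Ndn, Kcnq1ot1 and Snrpn hold 24, 17, 11, 9 and 7 CG, and the median over the most CG-rich window of 27025 genes is 8. The E-box letters CANNTG, read on both strands, occur 1 time in the Igf2 window, 1 time in the Mest window, 3 times in the Kcnq1ot1 window and 2 times in the Snrpn window, and no match was found in the Ndn window. Of all 32851 promoter windows, 72.3% hold CANNTG. The narrower CAGCTG, whose matches are also matches of CANNTG, is in 16.3% of all windows and in none of these 5. The letters TGANTCA are in 7.81% of all windows and in none of these 5. GGGCGG on either strand, which itself contains CG, occurs 1 time in the Igf2 window, 1 time in the Mest window and 2 times in the Ndn window, and 35.7% of all windows hold it. These matches describe letters only.

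The spans of Mest and Igf2 hold microRNAs on the strand of the host, printed here because both hosts were higher in both knockdowns; the seed, bases 2 to 8, is in capitals, and the sequences are from RefSeq on GRCm38.p6.
miR-335-5p (in Mest, chr6:30741314-30741336, plus strand): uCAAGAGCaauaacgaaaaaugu
miR-335-3p (in Mest, chr6:30741354-30741375, plus strand): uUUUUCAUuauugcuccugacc
miR-483-5p (in Igf2, chr7:142654968-142654989, minus strand): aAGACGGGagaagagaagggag
miR-483-3p (in Igf2, chr7:142654932-142654952, minus strand): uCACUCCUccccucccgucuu
No 2 of these 4 mature sequences share a seed. In both of the authors' deposited tables the precursor row Mir335 is at a mean normalized count of 0, and the row Mir483 is at 0.312 for BAF250A and 0 for BRD9. Mature microRNAs were not measured by these libraries' gene tables.

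The deposited values are a mean normalized count over the 4 libraries of a comparison, and a log2 fold change of knockdown over scrambled with its standard error (SE). An adjusted p below 0.05 from the authors' DESeq2 Wald test with Benjamini-Hochberg adjustment over all genes tested is the threshold for "rose" and "fell" below. Arid1a fell by 1.95 in BAF250A knockdown (SE 0.48) and Brd9 fell by 1.60 in BRD9 knockdown (SE 0.54) per the authors' deposited tables, and these 2 genes also set how the sign of the tables was read. Whole reads per library were worked out from the means for 24 of the 38 genes, and 3 more have 0 reads in all 6 libraries. Within a group the libraries are called 1 and 2, because which of them is A or B is unknown. A value per library below is a normalized count, the whole reads divided by the size factor of that library.

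The scrambled libraries stand apart in several measures. Size factors were 0.77 to 0.84 for the 4 knockdown libraries, against 1.07 to 1.58 for the scrambled libraries over both comparisons. Among genes with a mean normalized count below 3, reads were present for 772 and 521 genes in BAF250A libraries against 3258 and 2701 genes in scrambled libraries, and for 769 and 584 genes in BRD9 libraries against 3183 and 2629 genes in scrambled libraries. The whole reads of these genes were even numbers in 72.2% and 81.2% of values in BAF250A libraries, in 81.1% and 78.8% in BRD9 libraries, and in 56.6% to 57.2% in scrambled libraries. Of 259 annotated pseudogenes tested, 79.2% fell with BAF250A knockdown, and of 266 tested, 75.9% fell with BRD9 knockdown. Of long noncoding RNAs 34.6% fell with BAF250A knockdown and 19.3% with BRD9 knockdown, against 13.6% and 5.89% of protein-coding genes. The part of these differences in the results was not tested, either for long noncoding RNAs such as Kcnq1ot1 and Airn or for low genes at 0 in knockdown libraries. For long noncoding RNAs that averaged at least 100 normalized counts, the median log2 fold change was -1.33 with BAF250A and -1.11 with BRD9. Kcnq1ot1 had -3.40 and -3.84, farther from 0 than these medians, and Airn had -1.41 and -1.49, nearer to them, per the authors' deposited tables.

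The first question was how many imprinted genes changed when BAF250A was depleted. Of the 38 genes 30 were tested in BAF250A knockdown, and 9 passed the threshold, which is 30% beside 28.7% of all 16450 genes tested. Cdkn1c, Ndn, Mest, Igf2 and Dlk1 rose, and Snrpn, Kcnq1ot1, Plagl1 and Airn fell. The share that rose was 5 of 30, where 11.2% of all genes rose, and the share that fell was 4 of 30, where 17.5% of all genes fell. The overall share of imprinted genes called was near that of all genes. Their log2 fold changes ran from -6.33 to 6.49 with a median of -0.55, and the median of all genes tested was -0.18. The 8 genes left untested were Phlda2, Rian, Mirg, Rtl1, Dio3, Asb4, Magel2 and Snurf, all with a mean normalized count below 2 or at 0.

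In BRD9 knockdown 29 of the 38 genes were tested and 8 passed the threshold, which is 27.6% beside 14.4% of all 17198 genes tested. Cdkn1c, Ndn, Mest, Slc22a18 and Igf2 rose, and Snrpn, Kcnq1ot1 and Plagl1 fell. Of the 29 genes 5 rose, where 5.11% of all genes rose, and 3 fell, where 9.33% of all genes fell. The median log2 fold change was -0.12, and that of all genes tested was -0.15. Dlk1, with a mean normalized count of 0.807 in this comparison, was untested here together with the same 8 genes. Both knockdowns were compared with the same 2 scrambled libraries, so their values are given side by side and the likeness between them is not counted as a result.

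**Figure D1:**
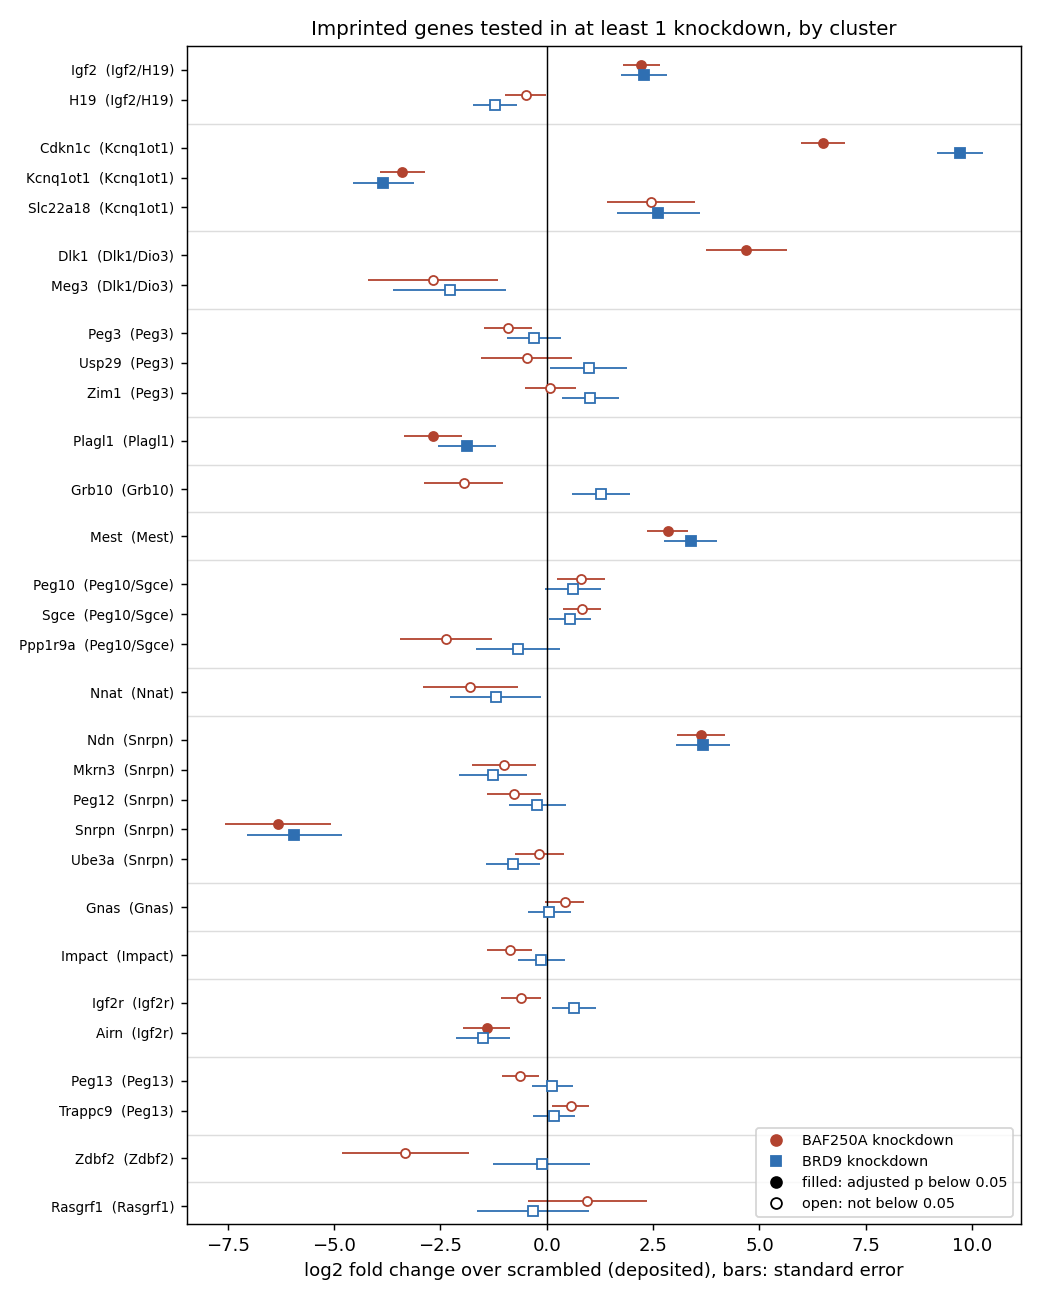
Deposited log2 fold change over scrambled (x axis, bars are standard errors) for the imprinted genes tested in at least 1 knockdown, grouped by cluster down the page, with BAF250A knockdown as red circles above BRD9 knockdown as blue squares and filled symbols for an adjusted p below 0.05. Cdkn1c lies farthest to the right at 6.49 and 9.71, and Snrpn farthest to the left at -6.33 and -5.94.

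The Kcnq1ot1 cluster on distal chromosome 7 held the gene with the highest fold change. Cdkn1c (chr7:143458339-143461059), the maternally expressed inhibitor of cyclin-dependent kinases, had 1039.6 and 988 normalized counts in BAF250A libraries, against 9.52 and 10.1 in scrambled libraries. In the BRD9 comparison it had 11771 and 11518 in BRD9 libraries, against 10.2 and 10.3 in scrambled libraries. All knockdown libraries were far above both scrambled libraries, and the 2 libraries of each group were close to each other. The scrambled libraries held 15 and 11 whole reads of Cdkn1c, so the lower end of each ratio rests on few reads. Cdkn1c rose by 6.49 (SE 0.52, adjusted p = 1.64e-33, authors' DESeq2 Wald test) in BAF250A knockdown and by 9.71 (SE 0.54, adjusted p = 1.41e-69) in BRD9 knockdown per the authors' deposited tables. The ratios of group means were 103.6-fold in BAF250A knockdown and 1139-fold in BRD9 knockdown. The deposited fold changes narrowed the search for these reads, so the ratios are no separate check of them. None of the 31-base words of Cdkn1c transcripts was found in another gene of the tables.

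Cdkn1c was also the only one of the imprinted genes tested in both tables whose fold change differed between the knockdowns past the threshold. The difference of log2 fold changes, BAF250A minus BRD9, was -3.21 (SE 0.75, adjusted p = 0.00152, normal test of the difference with Benjamini-Hochberg adjustment over 16311 genes). With Bonferroni adjustment in its place the difference for Cdkn1c did not pass. Of those 16311 genes 2.54% passed the test. Both BRD9 libraries were above both BAF250A libraries, each read on the scale of its own comparison.

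Kcnq1ot1 (chr7:143213111-143296547), the paternally expressed noncoding RNA that is known to silence Cdkn1c and its neighbours on the same chromosome, fell in both comparisons. It had 49.9 and 33.6 normalized counts in BAF250A libraries, against 604 and 346 in scrambled libraries. In BRD9 libraries it had 49.9 and 5.11, against 644 and 355 in scrambled libraries. The groups did not overlap, and BRD9 library 1 was well above BRD9 library 2. Kcnq1ot1 fell by 3.40 (SE 0.54, adjusted p = 4.65e-09, authors' DESeq2 Wald test) in BAF250A knockdown and fell by 3.84 (SE 0.72, adjusted p = 2.74e-06) in BRD9 knockdown per the authors' deposited tables. The log2 ratio of group means in BRD9 knockdown was -4.18, and it was -6.61 without BRD9 library 1 and -3.32 without BRD9 library 2. Kcnq1ot1 lies inside Kcnq1 on the opposite strand, and the labels do not say whether the counting used strand; Kcnq1 itself had a mean normalized count of 3.80 and 4.63 in the BAF250A and BRD9 tables.

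Slc22a18, a maternally expressed gene of the organic cation transporter family next to Cdkn1c, was low. It had 22 and 14 whole reads in BAF250A libraries, 26 and 22 in BRD9 libraries, and 7 and 2 in scrambled libraries. No knockdown library overlapped a scrambled library. In the authors' deposited tables its log2 fold change was 2.45 (SE 1.04, adjusted p = 0.06, DESeq2 Wald test) in BAF250A knockdown, and it rose by 2.63 (SE 0.97, adjusted p = 0.0485) in BRD9 knockdown. The BRD9 log2 ratio of group means was 3.16, against 3.98 without scrambled library 1. The call in BRD9 knockdown was lost when fold changes were centred on the median of well-expressed genes. Phlda2, a maternally expressed gene that restrains growth of the placenta, had 0 reads in all 4 knockdown libraries and 1 and 2 reads in scrambled libraries.

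**Figure D2:**
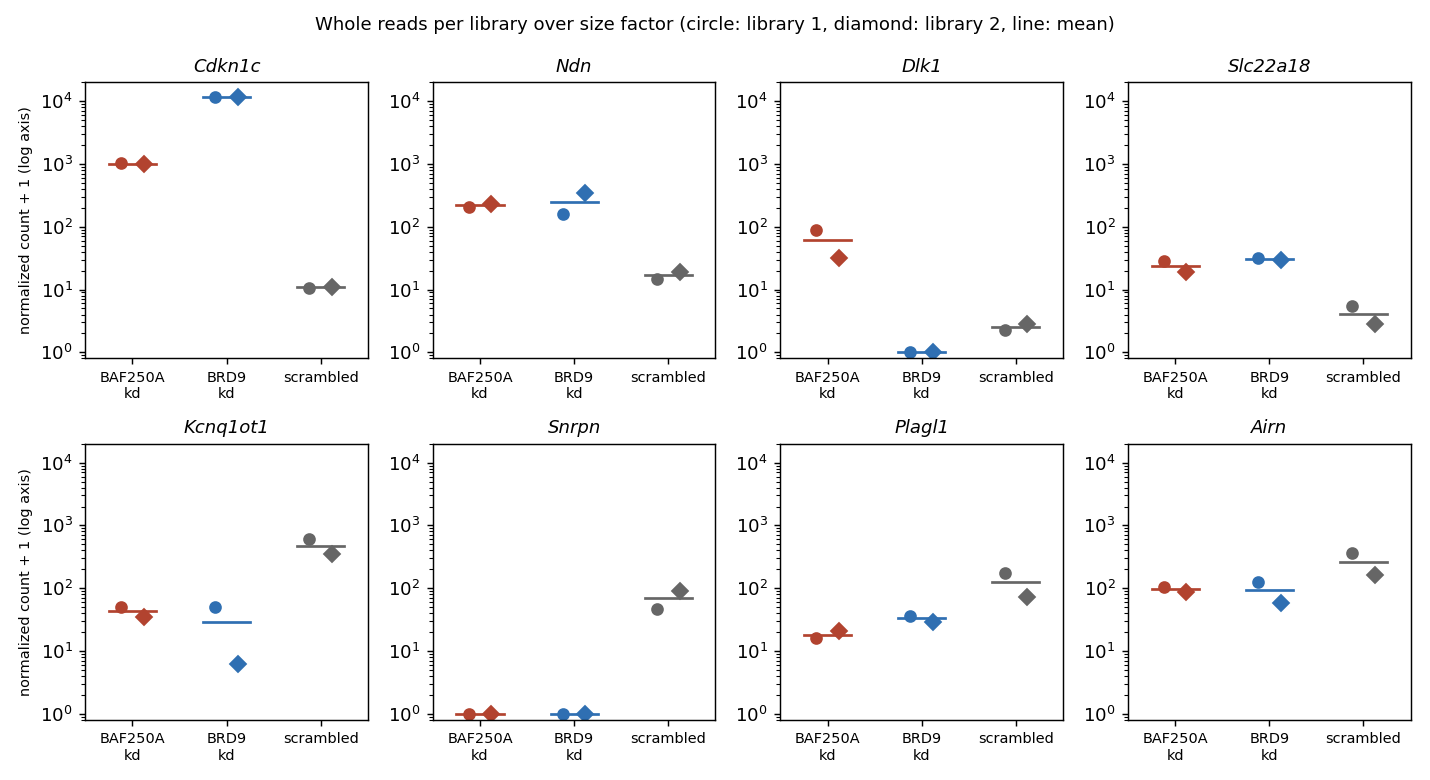
Normalized count plus 1 on a log axis in each library for the 8 imprinted genes that passed the threshold in at least 1 knockdown and whose whole reads were resolved, with BAF250A libraries left, BRD9 libraries in the middle and scrambled libraries (on the scale of the BAF250A comparison) right. Circles are library 1, diamonds are library 2 and lines are means; Cdkn1c stands near 10 in scrambled libraries and Snrpn at 0 reads in all 4 knockdown libraries.

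Igf2 (chr7:142650768-142666816), the paternally expressed insulin-like growth factor, and H19, its maternally expressed noncoding neighbour, lie next to each other. The reads of Igf2 are too many to be resolved by library, so its group means are those implied by the deposited mean and fold change. They were 19295.6 normalized counts in BAF250A knockdown against 4136 in scrambled cells, and 21953.1 in BRD9 knockdown against 4488 in scrambled cells. Igf2 rose by 2.22 (SE 0.43, adjusted p = 3.52e-06, authors' DESeq2 Wald test) in BAF250A knockdown and by 2.29 (SE 0.55, adjusted p = 0.000406) in BRD9 knockdown per the authors' deposited tables. The difference between the knockdowns was -0.07 (SE 0.70). Of the 31-base words of Igf2 transcripts in GENCODE, 61.9% also belong to Gm49394, a gene model that has no row in the tables, and 0.278% belong to any other gene of the tables, so its level is uncertain if reads were shared with that model.

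H19 was not called in either knockdown. Implied means were 785526.5 normalized counts in BAF250A knockdown against 1110943.5 in scrambled cells, and 492774.2 in BRD9 knockdown against 1144678.4 in scrambled cells. The mean of H19 over each comparison was 948235 for BAF250A and 818726 for BRD9 per the authors' deposited tables, and per kilobase of its longest transcript it ranked 1 of the 21572 genes with a length in both tables. Its log2 fold change per the authors' deposited tables was -0.50 (SE 0.49, adjusted p = 0.478, DESeq2 Wald test) in BAF250A knockdown and -1.22 (SE 0.52, adjusted p = 0.11) in BRD9 knockdown. Igf2 and H19 thus had fold changes of opposite sign in each table, of which that of Igf2 passed the threshold. Igf2os, an antisense RNA that overlaps Igf2, fell by 2.71 (SE 0.70, adjusted p = 0.000868, authors' DESeq2 Wald test) in BAF250A knockdown and had a value of 1.31 (SE 0.61, adjusted p = 0.15) in BRD9 knockdown per the authors' deposited tables. Without strand, reads of Igf2 and of Igf2os cannot be told apart.

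Other genes of distal chromosome 7 can be set beside these. Within 500 kb of the Cdkn1c start 16 other genes were tested, Kcnq1ot1 and Slc22a18 among them. With BAF250A knockdown 0 rose and 5 fell, including Kcnq1ot1, where 11.2% of all genes rose and 17.5% fell. With BRD9 knockdown 1 rose (Slc22a18) and 1 fell (Kcnq1ot1), where 5.11% of all genes rose and 9.33% fell. Cdkn1c begins 164.5 kb and Slc22a18 177 kb from the start of Kcnq1ot1, and Nap1l4, a histone chaperone gene at 253 kb, had log2 fold changes of 0.17 (SE 0.43) and 0.53 (SE 0.50) for BAF250A and BRD9 per the authors' deposited tables. On the other side Tspan32, a tetraspanin gene, fell by 4.52 (SE 0.63) in BAF250A knockdown and had a value of -1.08 (SE 0.66) in BRD9 knockdown per the authors' deposited tables. The difference for Tspan32 was -3.43 and passed the test of the difference (adjusted p = 0.0103, normal test, Benjamini-Hochberg). Mrpl23, a mitochondrial ribosome gene beyond H19, rose by 2.39 (SE 0.50) in BAF250A knockdown and by 2.11 (SE 0.55) in BRD9 knockdown per the authors' deposited tables. Nctc1, a noncoding RNA gene near H19, fell by 5.79 (SE 0.96) with BAF250A and fell by 2.39 (SE 0.70) with BRD9 knockdown per the authors' deposited tables.

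**Figure D3:**
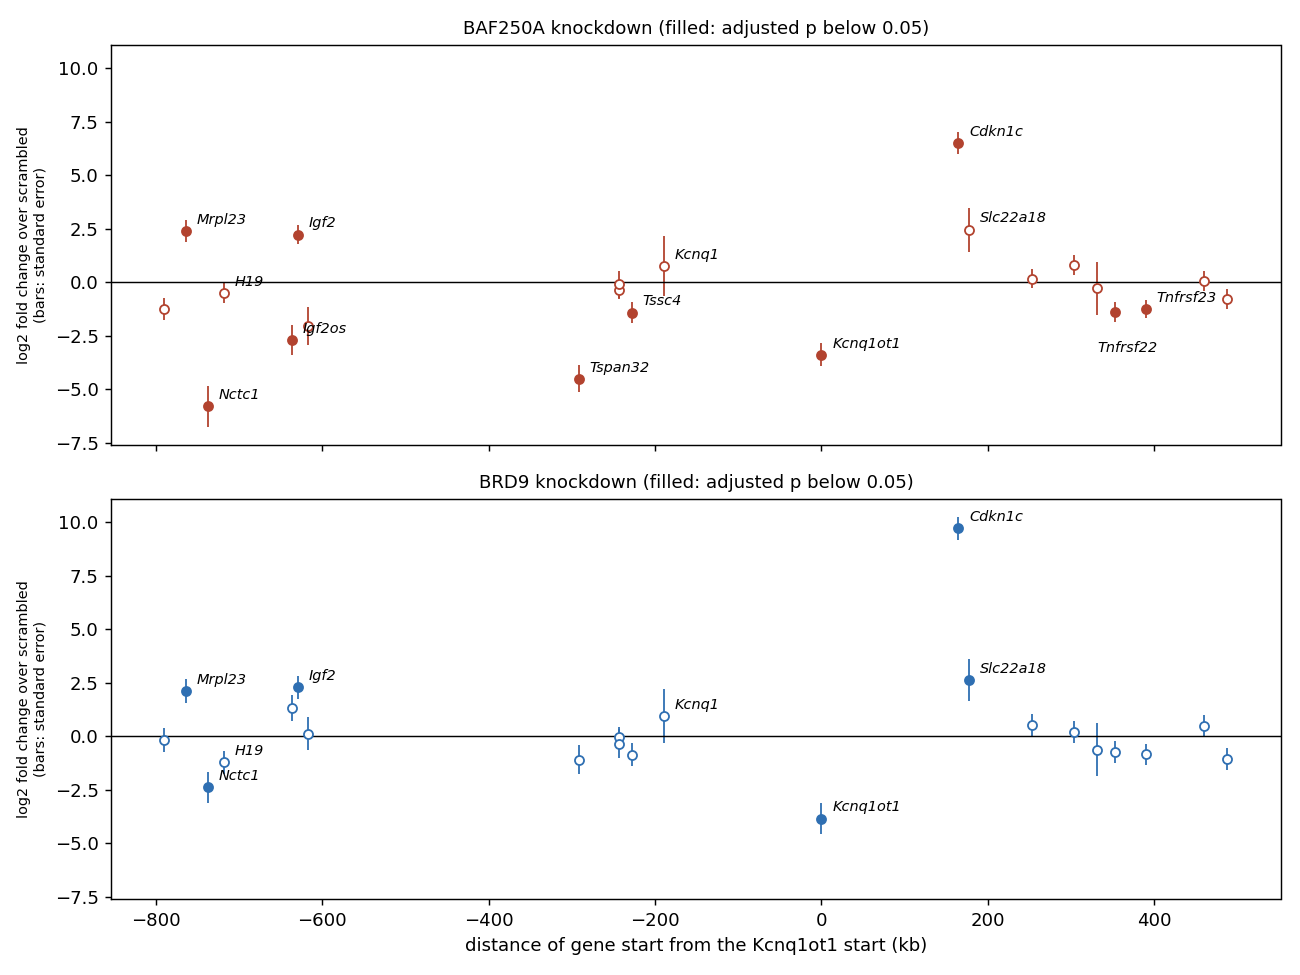
Deposited log2 fold change over scrambled (y axis, bars are standard errors) against the distance of each gene's start from the Kcnq1ot1 start in kb (x axis) for tested genes of distal chromosome 7, with BAF250A knockdown above and BRD9 knockdown below and filled points for an adjusted p below 0.05. Kcnq1ot1 lies at -3.40 and -3.84 and Cdkn1c, 164.5 kb away, at 6.49 and 9.71, while Nap1l4 lies at 0.17 and 0.53.

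In the Snrpn cluster of central chromosome 7, Ndn rose and Snrpn fell. Ndn (chr7:62348277-62349928) encodes necdin, a growth-restraining protein of the MAGE family that is paternally expressed. It had 202 and 233 normalized counts in BAF250A libraries, against 14.0 and 18.3 in scrambled libraries. In BRD9 libraries it had 157 and 345, against 14.9 and 18.7 in scrambled libraries. The groups did not overlap. Ndn rose by 3.63 (SE 0.57, adjusted p = 3.29e-09, authors' DESeq2 Wald test) in BAF250A knockdown and by 3.67 (SE 0.64, adjusted p = 2.19e-07) in BRD9 knockdown per the authors' deposited tables. The BRD9 log2 ratio of group means was 3.90, and it was 3.22 without BRD9 library 2.

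Snrpn (chr7:59982495-60450177), which encodes the SmN protein of the splicing machinery and starts in the imprinting control region of the cluster, was detected in scrambled libraries alone. It had 0 reads in both BAF250A libraries and in both BRD9 libraries, against 73 and 98 reads in scrambled libraries. With 3 reads per library set as the upper limit of a count of 0, which covers counting error only, Snrpn was at least 17.8-fold lower in BAF250A knockdown and at least 19.1-fold lower in BRD9 knockdown. It fell (log2 fold change -6.33, SE 1.25, adjusted p = 4.67e-06 with BAF250A, and -5.94, SE 1.12, adjusted p = 2.88e-06 with BRD9, DESeq2 Wald test) per the authors' deposited tables. Of the words of Snrpn 8.75% also belong to Snurf, the small open reading frame on the same RNA, and 23.7% belong to the gene model Gm38393. The row of Snurf is at 0 in all 6 libraries. Because 100% of the words of Snurf belong to Snrpn, the level of Snurf cannot be read from its row. Gm7367, a transcribed pseudogene, lies within the span of Snrpn on the opposite strand. It had log2 fold changes of -2.47 (SE 0.49) in BAF250A and -3.66 (SE 0.53) in BRD9 knockdown per the authors' deposited tables, and fell in both. Most transcribed pseudogenes tested also fell, 65% with BAF250A and 56.3% with BRD9 knockdown. Their median log2 fold changes were -3.98 and -3.92 at a mean normalized count of 100 or more.

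The remaining genes of the cluster did not pass the threshold. Mkrn3, a ring finger gene 71.9 kb from Ndn, had log2 fold changes of -1.01 (SE 0.76) and -1.27 (SE 0.80) for BAF250A and BRD9 per the authors' deposited tables, and Peg12, of the Frat family, had -0.77 (SE 0.63) and -0.22 (SE 0.66). Ube3a, the ubiquitin ligase that is imprinted in neurons, had -0.17 (SE 0.58) and -0.80 (SE 0.64) per the authors' deposited tables. Its scrambled libraries differed from each other by more than the groups did, with 510 and 587 normalized counts in BAF250A libraries, against 981 and 261 in scrambled libraries. Magel2, another MAGE gene next to Ndn, had 0 reads in all 6 libraries.

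Mest (chr6:30733506-30748466), a paternally expressed gene for a hydrolase-fold protein of mesoderm, had implied means of 4236 normalized counts in BAF250A knockdown against 590 in scrambled cells. In BRD9 knockdown the implied mean was 7083, against 677 in scrambled cells. Mest rose by 2.84 (SE 0.48, adjusted p = 5.95e-08, authors' DESeq2 Wald test) in BAF250A knockdown and by 3.39 (SE 0.62, adjusted p = 1.26e-06) in BRD9 knockdown per the authors' deposited tables. Copg2, a coatomer subunit gene whose annotated span overlaps that of Mest on the other strand, rose by 1.96 (SE 0.44) with BAF250A and by 1.66 (SE 0.50) with BRD9 knockdown per the authors' deposited tables. Without strand, reads from the overlap of Mest and Copg2 cannot be told apart. Within 500 kb 12 other genes were tested with BAF250A, of which 1 (Copg2) rose and 2 fell. With BRD9 14 were tested, of which 1 (Copg2) rose and 0 fell. Of all genes 11.2% rose and 17.5% fell with BAF250A, and 5.11% rose and 9.33% fell with BRD9.

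Plagl1 (chr10:13090832-13131694), a paternally expressed zinc finger regulator known to act on other imprinted genes, fell in both comparisons. It had 15.0 and 19.4 normalized counts in BAF250A libraries, against 172 and 72.2 in scrambled libraries. In BRD9 libraries it had 35.7 and 28.1, against 183 and 73.9 in scrambled libraries. The groups did not overlap, and the scrambled libraries differed from each other by more than the knockdown libraries did. Plagl1 fell by 2.68 (SE 0.68, adjusted p = 0.000617, authors' DESeq2 Wald test) with BAF250A and fell by 1.87 (SE 0.68, adjusted p = 0.0425) with BRD9 knockdown per the authors' deposited tables. The log2 ratios of group means were -2.83 and -2.01, against -2.07 and -1.21 without scrambled library 1.

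The Dlk1 to Dio3 cluster on chromosome 12 had few reads. Dlk1 (chr12:109452485-109463336), a paternally expressed membrane protein related to Notch ligands, had 71 and 24 whole reads in BAF250A libraries, 0 and 0 in BRD9 libraries, and 2 and 2 in scrambled libraries. The BAF250A libraries were the only ones above 2 reads. Dlk1 rose by 4.69 (SE 0.94, adjusted p = 7.9e-06, authors' DESeq2 Wald test) in BAF250A knockdown per the authors' deposited table and was not tested with BRD9. With 2 reads in each scrambled library, under the 3 reads set as the limit of a count of 0, no ratio of the reads is given. The maternally expressed noncoding RNA Meg3 had 0 reads in all knockdown libraries and 4 and 10 in scrambled libraries, with log2 fold changes of -2.68 (SE 1.52) and -2.29 (SE 1.34) that were not called per the authors' deposited tables. Rian and Mirg, which host small RNAs, had at most 4 reads in any library, Dio3, a thyroid hormone deiodinase gene, at most 2, and Rtl1, a retrotransposon-derived gene, 0.

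Airn (chr17:12741311-12859884), the paternally expressed noncoding RNA that silences Igf2r, had 104 and 86.7 normalized counts in BAF250A libraries, against 363 and 161 in scrambled libraries. In BRD9 libraries it had 126 and 57.5, against 387 and 165 in scrambled libraries. The groups did not overlap in either comparison. Airn fell by 1.41 (SE 0.56, adjusted p = 0.0413, authors' DESeq2 Wald test) with BAF250A knockdown, and its value with BRD9 was -1.49 (SE 0.63, adjusted p = 0.101), per the authors' deposited tables. The BAF250A log2 ratio of group means was -1.46, against -0.76 without scrambled library 1. Igf2r, the receptor that takes up Igf2 for breakdown and that overlaps Airn on the other strand, was not called, with -0.60 (SE 0.46) and 0.64 (SE 0.53) for BAF250A and BRD9 per the authors' deposited tables.

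Grb10, an adaptor protein that binds insulin and IGF receptors, had fold changes of opposite sign. It had 7.49 and 5.17 normalized counts in BAF250A libraries, against 24.8 and 32.9 in scrambled libraries. In BRD9 libraries it had 85.6 and 69.0, against 26.4 and 33.7 in scrambled libraries. The libraries did not overlap in either comparison. Its log2 fold changes of -1.95 (SE 0.93, adjusted p = 0.103) and 1.27 (SE 0.68, adjusted p = 0.235) for BAF250A and BRD9 did not pass the DESeq2 Wald test of the authors' deposited tables. The difference, BAF250A minus BRD9, was -3.23 (SE 1.15, adjusted p = 0.142, normal test with Benjamini-Hochberg adjustment over 16311 genes).

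The other genes tested were not called in either knockdown. Peg3, a zinc finger gene that is well expressed in this line, had log2 fold changes of -0.90 (SE 0.56) and -0.29 (SE 0.63) for BAF250A and BRD9 per the authors' deposited tables. Its neighbours Usp29, of the ubiquitin protease family, and Zim1, a zinc finger gene, had -0.48 (SE 1.08) and 0.08 (SE 0.59) with BAF250A and 0.98 (SE 0.90) and 1.03 (SE 0.67) with BRD9 per the authors' deposited tables. In the Peg10 cluster the retrotransposon-derived gene Peg10 had 0.80 (SE 0.56) and 0.61 (SE 0.65), and Sgce, which encodes epsilon-sarcoglycan, had 0.83 (SE 0.44) and 0.54 (SE 0.49) per the authors' deposited tables. Ppp1r9a, the neurabin gene, had 4.99 and 2.59 normalized counts in BAF250A libraries, against 44.4 and 7.31 in scrambled libraries, with log2 fold changes of -2.36 (SE 1.08) for BAF250A and -0.68 (SE 0.99) for BRD9 per the authors' deposited tables. Asb4, an ankyrin repeat gene, was not tested and had 0 reads in all 4 knockdown libraries. Nnat, a small membrane protein gene, had -1.79 (SE 1.12) and -1.20 (SE 1.06) per the authors' deposited tables. Gnas, the gene of the stimulatory G protein, had 0.42 (SE 0.47) and 0.06 (SE 0.51) and implied means of 113645.7 normalized counts in BAF250A knockdown against 85123.2 in scrambled cells per the authors' deposited tables. Impact, a regulator of translation, had -0.87 (SE 0.53) and -0.13 (SE 0.55) per the authors' deposited tables. Peg13, a noncoding RNA, had -0.62 (SE 0.44) and 0.13 (SE 0.48), and Trappc9, whose span holds it, had 0.56 (SE 0.44) and 0.17 (SE 0.49) per the authors' deposited tables. Zdbf2, a zinc finger gene, had 0 reads in both BAF250A libraries against 22 and 4 in scrambled libraries, and log2 fold changes of -3.33 (SE 1.49) for BAF250A and -0.12 (SE 1.14) for BRD9 per the authors' deposited tables. Rasgrf1, an exchange factor for Ras, had at most 6 reads in any library and log2 fold changes of 0.96 (SE 1.40) for BAF250A and -0.33 (SE 1.32) for BRD9 per the authors' deposited tables.

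The libraries themselves can be set beside these calls. Of the genes tested and resolved into whole reads, the BAF250A and scrambled libraries did not overlap for 15 of 19. For BRD9 the libraries did not overlap for 11 of 18. The share of all genes whose libraries do not overlap was not computed. These counts therefore cannot be compared with all genes or with the shares called, and are a description only. In several uncalled genes, such as Ube3a, Usp29 and Ppp1r9a, scrambled library 1 stood several-fold above scrambled library 2.

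A further list held 56 other imprinted genes. Of 45 tested, 3 rose and 7 fell with BAF250A, which is 22.2% beside 28.7% of all genes, and the median log2 fold change was 0.06. Of 44 tested, 5 rose and 1 fell with BRD9, which is 13.6% beside 14.4% of all genes, with a median of 0.35. Largest among those that changed with BAF250A were Tspan32, the cyclase gene Qpct (2.26, SE 0.59), the membrane protein gene Adam23 (1.99, SE 0.46), Copg2 and Ddc, an enzyme of amine synthesis (-1.57, SE 0.53), per the authors' deposited table. With BRD9 they were the chloride channel gene Ano1 (3.30, SE 0.73), Begain (2.58, SE 0.94), Gatm, an enzyme of creatine synthesis (2.24, SE 0.59), Copg2 and Adam23 (1.57, SE 0.54) per the authors' deposited tables. Gatm differed between the knockdowns by -2.77 (adjusted p = 0.0186, normal test of the difference, Benjamini-Hochberg) and the cadherin gene Cdh15 by -2.50 (adjusted p = 0.0154).

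Another list held 30 genes that set or keep imprints. Of 28 tested with BAF250A 2 rose and 0 fell, which is 7.14% beside 28.7% of all genes. Of 27 tested with BRD9 1 rose and 0 fell, which is 3.7% beside 14.4% of all genes. Cbx3, a protein that binds methylated histone H3, rose by 2.14 (SE 0.51) with BAF250A and by 1.80 (SE 0.54) with BRD9 knockdown per the authors' deposited tables. Dnmt3l, a cofactor of DNA methylation, rose by 3.38 (SE 1.35) with BAF250A at a mean normalized count of 6.23 per the authors' deposited tables. The maintenance methyltransferase gene Dnmt1 had 0.54 (SE 0.42) and 0.55 (SE 0.49), the boundary factor gene Ctcf 0.33 (SE 0.48) and 0.63 (SE 0.54), and Zfp57, which protects imprints, 0.12 (SE 0.44) and -0.20 (SE 0.49), none of them called per the authors' deposited tables. At an unadjusted p below 0.05 there were 5 such genes with BAF250A and 3 with BRD9.

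The last list held 17 genes of IGF signalling. Of 16 tested with BAF250A 3 rose and 5 fell, which is 50% beside 28.7% of all genes. Of 16 tested with BRD9 2 rose and 3 fell, which is 31.2% beside 14.4% of all genes. The growth factor gene Igf1 rose by 5.54 (SE 0.52) with BAF250A and had a value of 1.04 (SE 0.66) with BRD9 per the authors' deposited tables, a difference of 4.50 (adjusted p = 2.24e-05, normal test of the difference, Benjamini-Hochberg). Igfbp2, which binds IGFs outside the cell, fell by 2.95 (SE 0.47) with BAF250A and fell by 2.99 (SE 0.58) with BRD9 knockdown per the authors' deposited tables. Igf2bp3, which binds Igf2 messenger RNA, fell by 2.80 (SE 0.59) with BAF250A and fell by 2.61 (SE 0.62) with BRD9 per the authors' deposited tables. The small RNA regulator Lin28b fell by 4.63 (SE 1.38) with BAF250A and fell by 4.22 (SE 1.25) with BRD9 per the authors' deposited tables. It had 0 reads in every knockdown library, against 37 and 18 reads in scrambled libraries. With 3 reads per library as the limit of a count of 0, Lin28b was at least 5.24-fold lower with BAF250A and 5.66-fold with BRD9. Hmga2, a chromatin protein, fell by 2.73 (SE 0.46) with BAF250A per the authors' deposited tables. Igfbp3, another binding protein, rose by 2.50 (SE 0.61) with BRD9 and had a value of 0.83 (SE 0.45) with BAF250A. Igfbp4 rose by 1.83 (SE 0.57) with BRD9 and by 1.87 (SE 0.52) with BAF250A per the authors' deposited tables. The receptor genes Igf1r and Insr were called in neither table.

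**Figure D4:**
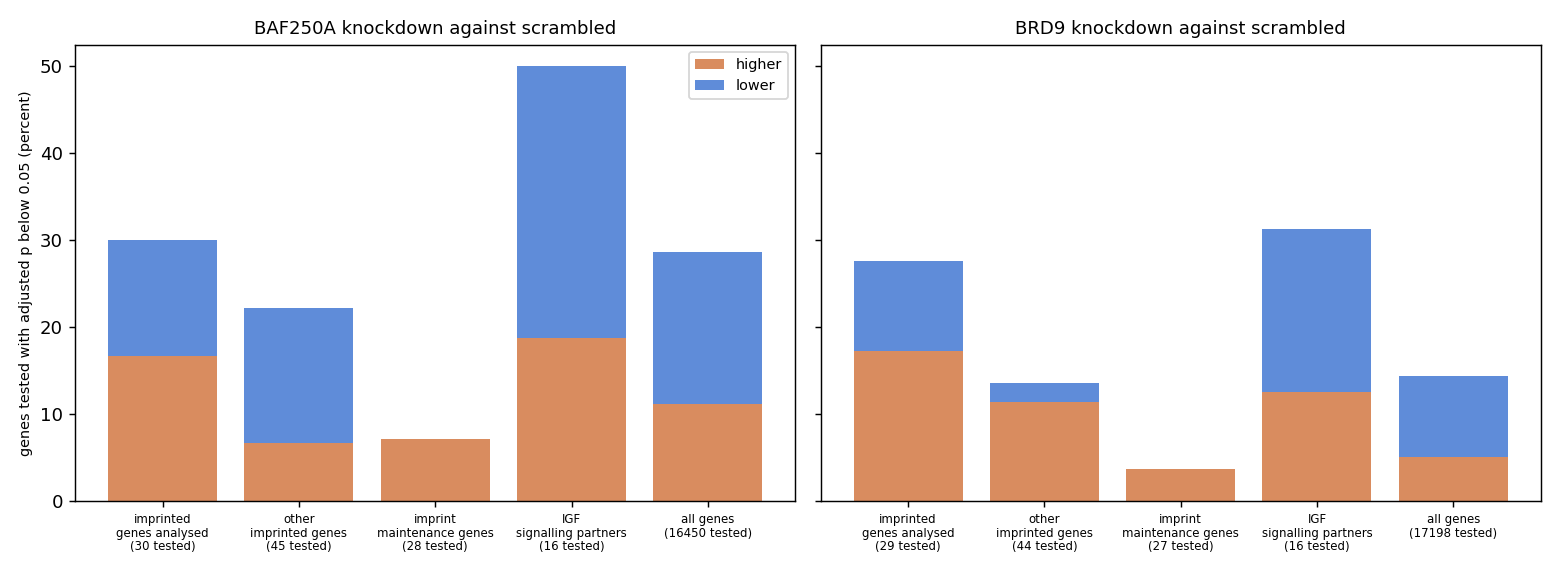
Percent of genes tested with an adjusted p below 0.05 (y axis), split into higher and lower, for the imprinted genes analysed, 3 lists around them and all genes, with BAF250A knockdown on the left and BRD9 knockdown on the right. The imprinted genes stand at 30% and 27.6%, beside 28.7% and 14.4% of all genes.

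Markers of cell types were read in the authors' deposited tables. The muscle genes Myod1 and Des had mean normalized counts of 6391 and 138937 for BAF250A in the authors' deposited table. These means take knockdown and scrambled libraries together, and these 2 of the 5 myogenic markers were not called with BAF250A. All 4 myotube markers fell with BAF250A, with summed implied means of 49176.6 normalized counts against 357628.1 in scrambled cells, and with BRD9 0 of 4 passed the authors' DESeq2 Wald test (0 at an unadjusted p below 0.05), with 345593.5 against 372334.6. All 4 fibroblast or mesenchymal markers rose with BAF250A, with summed implied means of 463965.5 against 19579.4 in scrambled cells. With BRD9 1 of the 2 tested rose, with 122112.7 against 20364.9. Nearly all of these sums was Col1a1, at 462170.3 in BAF250A and 121571.3 in BRD9 knockdown. Thy1 and Twist1 had implied means of 18.3 and 10.9 in BAF250A knockdown. The neuronal markers summed to 475.1 against 6155.8 with BAF250A, where 2 of 3 fell, and to 5810.0 against 6430.5 with BRD9, where 1 of 3 rose. Tubb3 gave most of the neuronal sums, and the gene that rose with BRD9 was Map2 (1.96, SE 0.73). Endothelial markers summed to 7.3 against 187.6 and to 16.2 against 197.1, and macrophage markers to 28.0 against 158.5 and to 30.5 against 164.2, with 1 gene lower in each comparison for each list. That gene was Kdr for endothelium and Cd68 for macrophages, and each gave most of its list's sum in scrambled cells. Adipocyte and epithelial lists held no call, and Adipoq was at 0. Of 5 myogenic markers 3 fell with BAF250A (Myf5, Myog and Cdh15), and 1 rose (Myod1) and 1 fell (Myf5) with BRD9. The myogenic markers summed to 123768.3 against 225525.5 in scrambled cells with BAF250A, and to 255912.4 against 235599.1 with BRD9. The placental markers Prl3d1, Hand1 and Ascl2 were at 0 in both tables. The part of these differences in the results on imprinted genes was not tested, and in these bulk samples fewer cells of a type and less RNA per cell cannot be told apart.

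Dividing the Wald scores by their robust spread over well-expressed genes, which was 2.1 for BAF250A and 1.52 for BRD9, ended most of the calls in BAF250A knockdown. Cdkn1c and Ndn then remained called with BAF250A, and Cdkn1c, Ndn, Mest, Kcnq1ot1 and Snrpn with BRD9.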

How the data were processed

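Total RNA of 6 C2C12 libraries, 2 per group, was sequenced, per the labels. Tools in the submitters' processing notes are DESeq2, RSEM, Bowtie, StringTie and HISAT, with the build mm10; their roles, versions and any use of strand are not given in the sources used here. The material is 2 comparison tables of 27179 genes. Per the file headers, the authors deposited for each gene a mean normalized count (a signal averaged over the 4 libraries of a comparison), the log2 fold change with a standard error, a Wald score, a p-value and an adjusted p-value. No count model was fitted here, because the tables hold no counts per library; the authors' DESeq2 Wald test was used as deposited. The tables do not name the numerator, so the sign was taken as knockdown over scrambled, since the targeted genes are negative. Fold changes of genes with few reads are pulled towards 0, so they can understate such changes. Where a group has 0 reads, the reads set only a lower limit and the size of the change is not determined.

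Whole reads per library were recovered from the means: each mean adds up the reads of 4 libraries, every read being worth a fixed step in its library, and a gene was accepted where exactly 1 set of reads matched both tables with the same reads in the shared scrambled libraries, with at most 0.05 accidental matches foreseen. All 532 and 557 distinct values below 3 were resolved. In genes with means of 30 to 200 the log2 ratio of group means differed from the deposited fold change by a median of 0.05 with BAF250A (14 genes) and 0.08 with BRD9 (16 genes), and by at most 0.58 (Dlk1) and 0.60. For means above 200 the deposited fold change narrowed the search, so ratios of such genes are no separate check of it. A mean above 1300 was tried only where 1 group had few reads, as for Cdkn1c with BRD9 (mean 5827). Implied means take the deposited fold change as a plain ratio of means. Differences between knockdowns were divided by their combined standard error and read against the normal distribution; shared controls make this conservative. Both computed steps were run on simulated data. The simulated reads had means below 200 and no narrowing by fold change. The narrowed search used for genes such as Cdkn1c and Kcnq1ot1 was therefore not covered. The simulated fold changes of the 2 comparisons had separate errors, without shared controls. Named genes were all 38 imprinted genes, with full values for those called, and up to 5 called genes with the largest fold changes from each other list. The genes and lists were chosen with earlier results of these data known. Biological duplicates are not further described, so p-values measure the spread between these libraries. Total counts per library were not used here, and intervals for single values cover counting error only. Gene positions are RefSeq on GRCm38.p6, and transcript words of 31 bases were taken from GENCODE. Python 3.11.15 with numpy 2.4.6, pandas 2.3.3, scipy 1.17.1 and matplotlib 3.10.9 was used.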

Additional observations from a re-analysis of the deposited data

Results flagged for a closer look

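Cdkn1c stood out because its response differed between the knockdowns by a test of the difference itself. The log2 fold change was 6.49 (SE 0.52) with BAF250A and 9.71 (SE 0.54) with BRD9 knockdown in the authors' deposited tables, and the difference, BAF250A minus BRD9, was -3.21 (SE 0.75, adjusted p = 0.00152 by the normal test over 16311 genes, Benjamini-Hochberg). With Bonferroni adjustment the difference did not pass the threshold. Normalized counts were 1039.6 and 988 in BAF250A libraries and 11771 and 11518 in BRD9 libraries, each on the scale of its own comparison.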

How the results depend on the processing

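Imprinted genes called with BAF250A knockdown numbered 2 with Wald scores divided by their spread, against 9, and those called with BRD9 numbered 5 under that setting and 5 with Bonferroni adjustment, against 8. Airn was lost at an adjusted p below 0.01, without a filter and with Bonferroni adjustment, and Plagl1 and Slc22a18 were lost with BRD9 at 0.01 and without a filter. With Bonferroni adjustment Plagl1 was also lost with BAF250A, and Igf2, Plagl1 and Slc22a18 were lost with BRD9. For the other imprinted genes the BAF250A count of 10 became 5 at an adjusted p below 0.01, 1 with Bonferroni adjustment and 1 with divided scores, and the BRD9 count of 6 became 3, 0 and 0. For the genes that keep imprints the BAF250A count of 2 became 1 at 0.01, 1 without a filter, 0 with Bonferroni adjustment and 0 with divided scores, and the BRD9 count of 1 became 0 with Bonferroni adjustment and 0 with divided scores; at an unadjusted p below 0.05 these genes numbered 5 and 3. For IGF signalling the BAF250A count of 8 became 5 with Bonferroni adjustment and 1 with divided scores, and the BRD9 count of 5 became 1 and 1. The count of imprinted genes that differ between the knockdowns, 1 (Cdkn1c), became 0 with Bonferroni adjustment, 2 without a filter (adding Dlk1) and 2 with divided scores (adding Grb10). The cause was not tested. Leaving out a library was possible for single genes with resolved reads and not for counts of calls. No paired analysis was possible because values per library could not be tied to the letters A and B of the labels. With 2 libraries per group the smallest size of a called fold change was 1.02 with BAF250A and 1.29 with BRD9 on the log2 scale, and smaller differences were not called at this replication.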
